A study of Rattus norvegicus with 4 samples.

Results

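Potassium channel genes that carry resting, G protein-gated, ATP-sensitive, leak and calcium-activated current were followed in rat cortical neurons given 25 mM KCl for 4 h. The 10 genes were chosen by symbol: the inward-rectifier (Kcnj) genes Kcnj3, Kcnj4, Kcnj6, Kcnj9, Kcnj11 and Kcnj14, the two-pore leak (Kcnk) genes Kcnk1 and Kcnk3, and the BK channel (Kcnm) genes Kcnma1 and Kcnmb1. They had 18 of the 1263 probe sets of the array that are not Affymetrix controls, and 10 of the 720 genes that those probe sets name by 1 symbol each. A probe set is a group of short oligonucleotides on the array that together report 1 transcript. Cortical neurons were taken from rat embryos (E17) and grown for 14 days in Neurobasal medium with B27, and were then given phosphate-buffered saline (control) or 25 mM KCl for 4 h. Each group had 2 arrays, and the titles number them control 1 and 2 and KCl 1 and 2. No label used here names the animals' strain, sex or number. The labels leave unsaid if replicate arrays stem from different cultures, so p-values speak only of the spread among these arrays, which may be technical, and the description label words all 4 samples as not activated, against the titles and treatment protocols.

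Inward rectifiers pass potassium more easily into the cell than out of it and hold neurons near their resting potential. The GIRK subgroup opens when inhibitory receptors release G protein βγ subunits, KATP channels close when ATP is plentiful, and two-pore channels carry the background leak. BK channels are opened by depolarization and calcium acting together, and they speed the repolarization of spikes. Raised extracellular potassium reduces the gradient that drives current through all of these channels, depolarizes the neuron and opens its voltage-gated calcium channels. The comparison asks which transcripts differ after 4 h of this treatment.

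None of the 10 genes passed the test. Of the 18 probe sets, 13 were bright enough to be tested, for 8 genes, and 0 of the 13 passed in limma at an adjusted p below 0.05, where 102 of all 947 tested probe sets did (10.8%; 5.49% higher and 5.28% lower after KCl). The smallest adjusted p among the 13 was 0.13. With an unadjusted p below 0.05 there were 5 of the 13, against 25.6% of all tested, 1 of them higher (9.29% of all tested) and 4 lower (16.3%). With an ordinary t statistic 0 of the 13 passed and 3 had an unadjusted p below 0.05, against 0 and 157 of all 947. The 5 in limma were the second probe set of Kcnj3, higher after KCl from values within background, and Kcnj11, Kcnj14, Kcnk1 and Kcnk3, all lower. The Kcnj3 and Kcnk3 probe sets among them were bright enough to be tested only through the group where they were high. Kcnj6 and Kcnj9, which encode GIRK subunits, were within background on all 4 arrays and were not tested. The treatment itself was visible on the same arrays: Fos, an immediate-early gene, rose 14.4-fold (log2 change 3.85 ± 0.11, SE; limma adjusted p = 9.2e-08), Nr4a1 rose 9.90-fold and Bdnf, a neurotrophin gene, rose 5.84-fold on their brightest probe sets.

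Values are the deposited linear intensities of probe sets, in arbitrary units. The 19 probe sets for transcripts of bacteria and yeast served as background, with a median of 9.05 and a highest value of 73.7. A value at or below 73.7 is called within background here, although this limit comes from control 1 and the highest values were 36.9 on control 2, 61.8 on KCl 1 and 65.9 on KCl 2, and a fold against such a value depends on that background. Probe sets differ in how strongly they hybridize, so the intensities of different genes were not ranked against each other. Fold changes are ratios of geometric means, and errors are SD over the 2 arrays of a group for intensities and limma's moderated standard error (SE) for log2 changes. Bounds are those of 95% intervals, unadjusted, and speak of the fall or rise that the 2 arrays per group still allow.

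Upstream sequence from the RefSeq promoter table, build GRCr8, was matched by symbol for 6 of the 10 genes: Kcnj4, Kcnj6, Kcnj9, Kcnj14, Kcnma1 and Kcnmb1. Kcnj3, Kcnj11, Kcnk1 and Kcnk3 had no entry. The 250 bases before each start were searched on both strands for the cAMP response element TGACGTCA, its half-site TGACG, which lies within the full element, the AP-1 site TGANTCA and the EGR site GCGNGGGCG. Among 33469 promoters of the same length, 1.59% held the full element, 18.22% the half-site, 6.34% the AP-1 site and 4.29% the EGR site. The full element, the AP-1 site and the EGR site were found in 0 of the 6 members, and the half-site in 1, Kcnj4. The windows are shown for Kcnj14, the member above background with the largest difference, for Kcnj4, the member with a half-site, and for Nr4a1, which rose and whose window held 4 half-sites and 1 EGR site. Capitals mark the matches, and sequences run 5′ to 3′ on the gene's strand.
Kcnj14 (chr1:105437259-105437508, minus strand): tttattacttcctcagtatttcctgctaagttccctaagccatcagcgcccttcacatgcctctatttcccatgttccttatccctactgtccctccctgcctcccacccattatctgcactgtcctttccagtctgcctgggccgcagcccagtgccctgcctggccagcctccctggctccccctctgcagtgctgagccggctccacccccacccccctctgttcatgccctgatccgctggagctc
Kcnj4 (chr7:112954548-112954797, minus strand): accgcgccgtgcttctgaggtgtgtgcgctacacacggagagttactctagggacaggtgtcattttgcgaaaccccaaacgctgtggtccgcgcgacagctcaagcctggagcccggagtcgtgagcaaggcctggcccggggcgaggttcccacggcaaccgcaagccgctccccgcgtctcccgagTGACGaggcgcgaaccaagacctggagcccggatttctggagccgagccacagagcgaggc
Nr4a1 (chr7:134259888-134260137, plus strand): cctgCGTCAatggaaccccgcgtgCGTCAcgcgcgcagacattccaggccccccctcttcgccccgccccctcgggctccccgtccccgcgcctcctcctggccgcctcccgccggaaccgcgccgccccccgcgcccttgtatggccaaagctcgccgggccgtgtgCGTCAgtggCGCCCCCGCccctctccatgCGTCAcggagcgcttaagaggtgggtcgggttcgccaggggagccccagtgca
The Kcnj14 window, with no capitals, had none of these letters, and the half-site of Kcnj4 began 61 bases before the start. The GC content was 59.6% for Kcnj14, 65.6% for Kcnj4 and 74.8% for Nr4a1, against a median of 51.2% over all promoters. A match describes letters in this window and says nothing of binding.

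**Figure D1:**
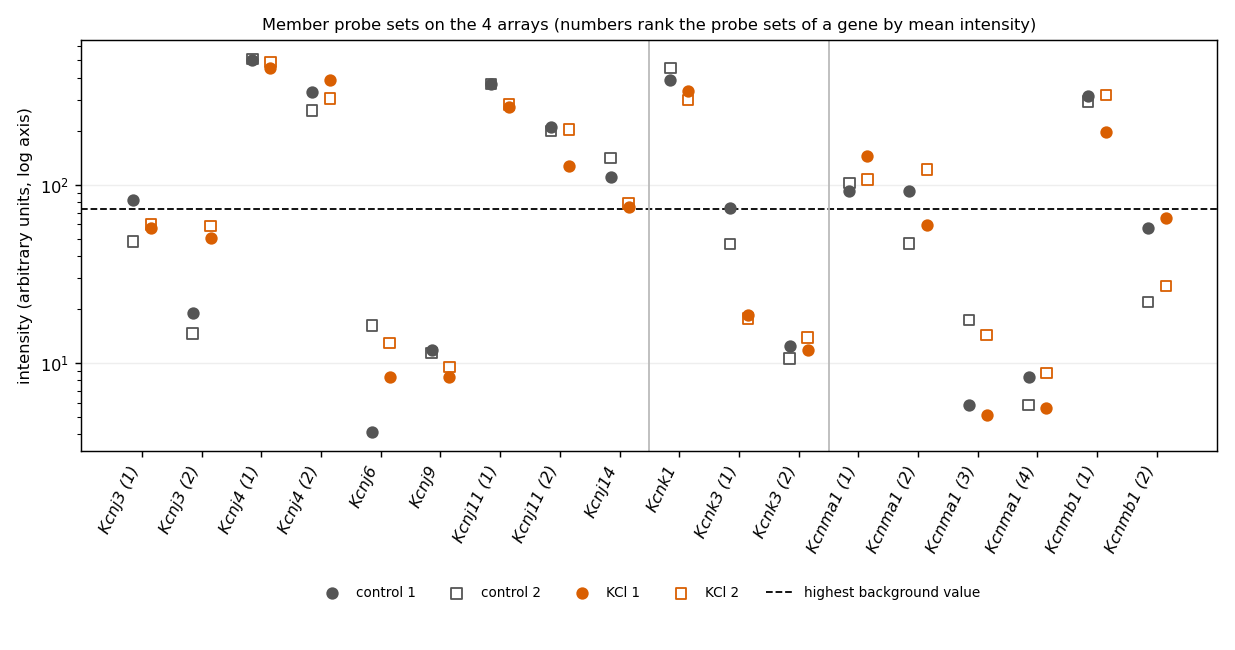
Intensity (log axis, arbitrary units) of each of the 18 member probe sets on control 1, control 2, KCl 1 and KCl 2, ordered by Kcnj, Kcnk and Kcnm group, with the highest background value of 73.7 as a dashed line. Of the 18, 8 lie above the line on all 4 arrays, 7 at or below it on all 4, and 3 on both sides of it.

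By the limit of 73.7, the values of the GIRK genes lay almost entirely within background. Kcnj3 encodes GIRK1, a subunit that forms channels only with other GIRK subunits. Its brighter probe set, U09243_at, read 82.4 and 48.2 in controls and 57.3 and 60.0 after KCl. Against the highest background value of its own array, each control was above (73.7 and 36.9) and each KCl array below (61.8 and 65.9). The KCl values lay between the control values, and the log2 change was −0.10 ± 0.42 (SE; limma adjusted p = 0.90). Its other probe set, U72410_s_at, read 19.0 and 14.7 on the controls and 50.5 and 58.9 after KCl. Both KCl arrays were above both controls there, but all 4 values were within background. The log2 change of 1.71 ± 0.65 did not pass (limma adjusted p = 0.15), and its mean of 4 arrays cleared the filter on dim probe sets through the KCl values. Without the intensity trend in limma's variance model this probe set passed, with an adjusted p of 0.048; over all 12 alternatives that tested it the adjusted p lay between 0.048 and 0.52. The probe sets of Kcnj3 thus differed in direction.

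Kcnj6, which encodes GIRK2, the subunit found in most neuronal GIRK channels, read 4.1 and 16.3 on the controls and 8.4 and 13.0 after KCl. Its probe set is U21087_at. Kcnj9, which encodes GIRK3 and was measured by L77929_at, read 11.9 and 11.4 on the controls and 8.3 and 9.5 after KCl. Both genes stayed near the median of the background probe sets, 9.05, on every array, so these probe sets gave no level for either transcript and no fold is given. A value within background bounds what this probe set detected and does not show that the transcript was absent.

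Kcnj4 and Kcnj14 encode classical, strongly rectifying subunits of the Kir2 type. Kcnj4 read 504.8 and 508.9 on the controls and 450.4 and 489.5 after KCl by its brighter probe set, X87635_at. The KCl arrays lay below the controls, by less than the KCl arrays differed from each other. The log2 change was −0.11 ± 0.14 (SE; limma adjusted p = 0.67), with an interval that reached a 1.35-fold fall and a 1.15-fold rise. The other probe set, X83580cds_s_at, read 330.7 and 262.1 on the controls and 387.5 and 304.9 after KCl, where the groups overlapped, with a log2 change of 0.22 ± 0.19 (limma adjusted p = 0.52). The probe sets of Kcnj4 differed in direction, and neither passed.

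Kcnj14 had the largest difference among members above background on all 4 arrays. Its probe set, AJ003065_at, read 110.7 and 141.2 on the controls and 75.0 and 78.6 after KCl, so the KCl values lay below both controls and just above the highest background value. The geometric mean was 1.63-fold lower after KCl, or −0.70 ± 0.29 (SE) in log2, and this did not pass (limma adjusted p = 0.17). The interval ran from a log2 change of −1.36 to −0.05. Leaving out each array in turn gave log2 changes from −0.88 to −0.53.

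Kcnj11 encodes Kir6.2, the pore of ATP-sensitive potassium channels. By its brighter probe set, D86039_at, it read 367.6 and 368.7 on the controls and 273.1 and 283.3 after KCl. The arrays of each group lay close together and the groups did not overlap, with a 1.32-fold lower geometric mean after KCl. The log2 change was −0.40 ± 0.16 (SE; limma adjusted p = 0.15), and it stayed between −0.43 and −0.38 when any single array was left out. The other probe set, D86039_g_at, comes from the same source sequence, so it is no independent measure. It read 210.7 and 201.2 on the controls and 127.6 and 205.0 after KCl, where KCl 2 was level with the controls, and its log2 change of −0.35 ± 0.26 did not pass (limma adjusted p = 0.44). Without KCl 1 it was −0.01, and without KCl 2 it was −0.69 (limma adjusted p = 0.082). Of the sulfonylurea receptors, with which Kir6.2 forms the channel, Abcc9 was measured, at 395.6 and 415.2 on the controls and 323.1 and 365.4 after KCl (log2 change −0.24 ± 0.15; limma adjusted p = 0.38). Abcc8 had no probe set with its symbol.

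The two-pore genes gave lower values after KCl on both tested probe sets. Kcnk1 encodes TWIK-1, a weakly rectifying leak channel. By AF022819_at it read 386.2 and 452.0 on the controls and 337.0 and 300.6 after KCl. All 4 values were above background, and the highest KCl value lay below the lowest control value. The geometric mean was 1.31-fold lower after KCl (log2 change −0.39 ± 0.16, SE; limma adjusted p = 0.18), with log2 changes of −0.51 to −0.28 when each array was left out.

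Kcnk3 encodes TASK-1, an acid-sensitive leak channel. Its probe set AF031384_at read 74.4 and 46.6 on the controls and 18.6 and 17.8 after KCl. The groups did not overlap, but control 1 alone exceeded the highest background value of all arrays, and by less than 1 unit. Set against the highest background value of its own array, control 2 (46.6 against 36.9) exceeded it too, and neither KCl array did. The log2 change of −1.69 ± 0.62 (SE; limma adjusted p = 0.13) is a difference between values at or near the background range, and its mean cleared the filter on dim probe sets through the control arrays. With a pseudocount of 16 the log2 change was −1.14. The other probe set, rc_AA925138_s_at, was not tested and read 12.4 and 10.6 on the controls and 11.9 and 13.9 after KCl, within background throughout and with overlapping groups.

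**Figure D2:**
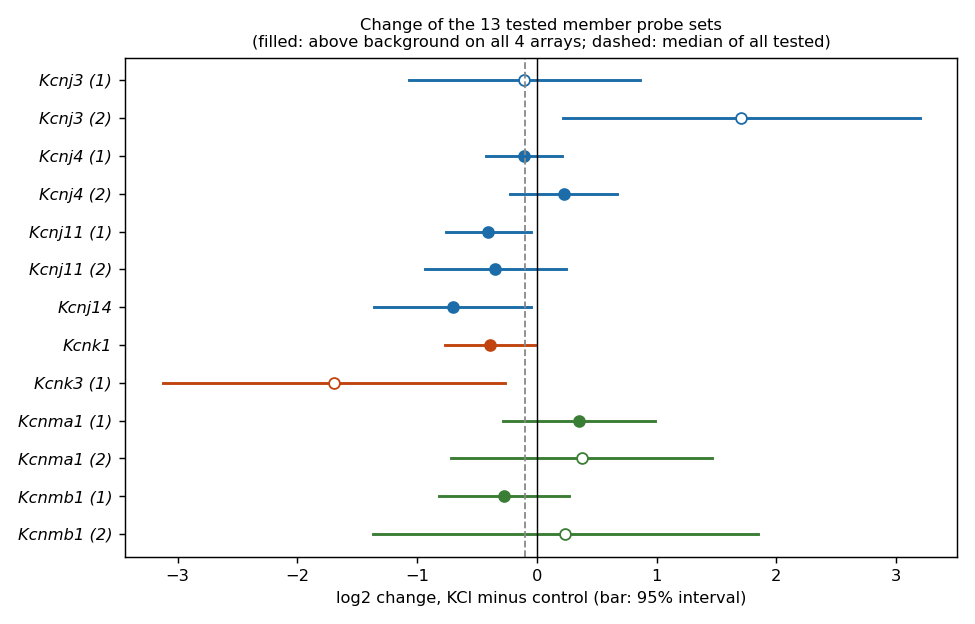
Log2 change, KCl minus control, of the 13 tested member probe sets (points) with 95% intervals from limma (bars), coloured by Kcnj, Kcnk and Kcnm group. Filled points are above background on all 4 arrays, and the dashed line at −0.10 is the median of all 947 tested probe sets; the intervals of the second Kcnj3 probe set, Kcnj11 (1), Kcnj14, Kcnk1 and Kcnk3 do not reach 0, before adjustment.

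The BK genes showed no common direction. Kcnma1 encodes the pore-forming α subunit and had 4 probe sets. By its brightest, AF083341_s_at, it read 92.8 and 102.5 on the controls and 145.0 and 107.1 after KCl, with both KCl values above both controls and KCl 2 close to control 2. The log2 change was 0.35 ± 0.28 (SE; limma adjusted p = 0.48), with an interval that reached a 1.22-fold fall and a 1.99-fold rise. The second, U93052_s_at, read 92.9 and 47.0 on the controls and 59.9 and 122.3 after KCl. Arrays of the same group differed 1.98-fold and 2.04-fold there, and the log2 change of 0.37 ± 0.48 (limma adjusted p = 0.67) turned to −0.12 without control 2 and to −0.14 without KCl 2. The remaining probe sets, U55995_at and U40603_at, lay between 5.1 and 17.4 on the 4 arrays and were not tested.

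Kcnmb1 encodes the β1 subunit of BK channels, best known from smooth muscle, where it raises the channel's calcium sensitivity. Its brighter probe set, AF020712_at, read 315.0 and 294.0 on the controls and 197.7 and 319.6 after KCl. The array KCl 1 was low, and KCl 2 was above both controls. The log2 change was −0.28 ± 0.24 (SE; limma adjusted p = 0.52). Without KCl 2 it was −0.62 and passed, with an adjusted p of 0.049, and without KCl 1 it was 0.07. The other probe set, AB010963_s_at, read 57.6 and 22.0 on the controls and 65.2 and 27.0 after KCl, all within background, with a log2 change of 0.24 ± 0.70 (limma adjusted p = 0.86). That probe set was higher on the array numbered 1 than on the array numbered 2 in both groups. Of the smooth muscle and vascular markers, 2 of 11 had a probe set with their symbol, Pdgfrb and Vcam1, and neither passed (log2 changes 0.10 ± 0.30 and 0.72 ± 0.27; limma adjusted p = 0.87 and 0.14). The defining smooth muscle genes Acta2 and Myh11 were not measured under their symbols, so the label of that cell type could not be checked.

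The groups were set side by side in level and change. Of 9 Kcnj probe sets, 5 were above background on all arrays and 3 within it on all arrays. For Kcnk these numbers were 1 and 1 of 3, and for Kcnm 2 and 3 of 6. In all, 7 of 18 member probe sets (38.9%) were within background on all 4 arrays, against 34.5% of all 1263 probe sets. The probe sets above background on all arrays ran from 75.0 to 508.9 for Kcnj, from 300.6 to 452.0 for Kcnk and from 92.8 to 319.6 for Kcnm, so the ranges of the groups overlapped.

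For change, each gene entered through its brightest tested probe set. The median log2 change was −0.26 over 4 Kcnj genes, −1.04 over 2 Kcnk genes and 0.04 over 2 Kcnm genes, beside −0.10 over all 947 tested probe sets. The Kcnk value rests on Kcnk3, whose KCl values were within background; Kcnk1 alone had −0.39. The Kcnj value moved to −0.40 when Kcnj3 dropped out under a stricter filter, to −0.45 without control 2 and to −0.16 when the probe sets of a gene were averaged, and the Kcnm value moved to 0.17 with that averaging. Over the 8 tested member genes the median was −0.33 and 7 lay below 0, while over all 570 tested genes the median was −0.09 and 59.8% lay below 0. Kcnk3 is among the 7, and its mean cleared the filter on dim probe sets only through the control arrays. Differences between the groups of channels were not tested, because the genes of a group are not replicates.

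Groups that did not overlap were about as frequent among the members as on the whole array. So were falls counted by probe set: 8 of the 13 tested probe sets had a log2 change below 0, against 60.3% of all 947. Counted by gene, through the brightest tested probe set, 7 of the 8 tested members lay below 0, against 59.8% of all 570 tested genes. That count includes Kcnk3, which was tested only through its control values. Of the 13 tested probe sets, 7 separated the control from the KCl arrays (53.8%), against 58.0% of all 947, with 5 lower after KCl (36.5% of all tested) and 2 higher (21.4% of all tested). U72410_s_at of Kcnj3 and AF031384_at of Kcnk3 are among the 7, and their means cleared the filter on dim probe sets only through the group where they were high. The 5 that separated the groups with all values above background were X87635_at of Kcnj4, D86039_at of Kcnj11, Kcnj14, Kcnk1 and AF083341_s_at of Kcnma1. Of these, Kcnj11 had the closest replicates, 1.00-fold apart in the controls and 1.04-fold apart after KCl.

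**Figure D3:**
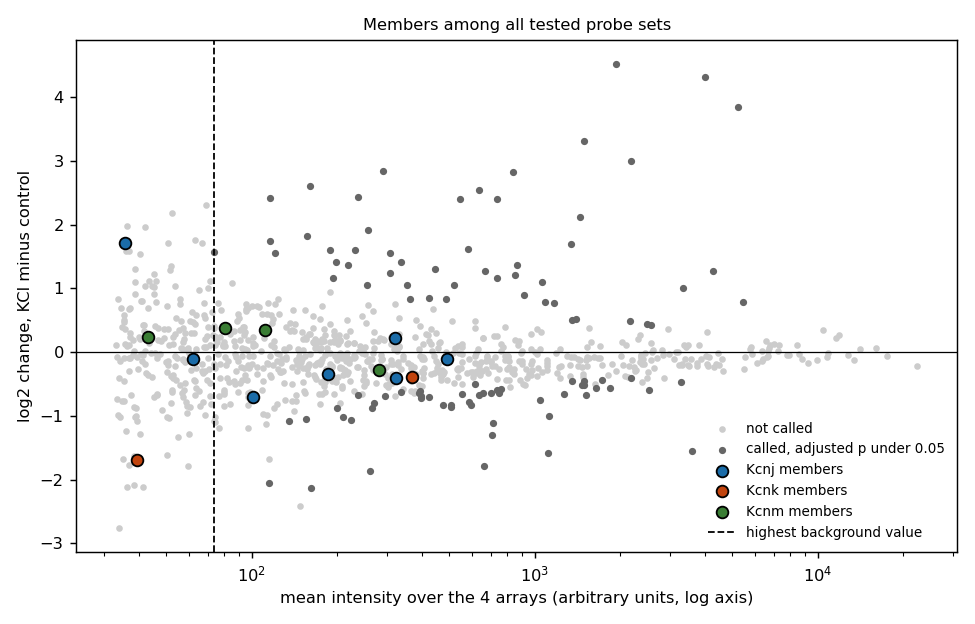
Log2 change, KCl minus control, against mean intensity over the 4 arrays (log axis) for all 947 tested probe sets; grey points did not pass, dark points passed at a limma adjusted p below 0.05, and coloured points are the 13 member probe sets. The members lie at means below 500, and the 4 left of the dashed background line are at intensities where 1 of 204 probe sets passed.

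The share of probe sets that passed differed with brightness. All 13 member probe sets had mean intensities below 500. Of the 204 tested probe sets with a mean at or below 73.7, 4 of them members, 1 passed (0.5%), and the median SE of a log2 change there was 0.53. Of the 451 with means from there up to 500, 9 of them members, 41 passed (9.1%), with a median SE of 0.23 and a smallest called change of 1.53-fold. Of the 292 above 500, with no member among them, 60 passed (20.5%), with a median SE of 0.13 and a smallest called change of 1.32-fold. The differences of D86039_at of Kcnj11 and of Kcnk1, 1.32-fold and 1.31-fold, were below the smallest called in the band up to 500. That of Kcnj14 in the same band, 1.63-fold, was above it and did not pass (limma adjusted p = 0.17).

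Genes that work with these channels were read from fixed lists. Of 18 receptors that can open GIRK channels through inhibitory G proteins, 16 had a probe set and 14 were tested; Cnr1 fell, none rose, and 13 did not pass (median log2 change −0.29). Cnr1, which encodes the CB1 cannabinoid receptor, read 1850.7 and 1615.5 on the controls and 1160.3 and 1260.0 after KCl, a difference of −0.52 ± 0.12 in log2 (SE; limma adjusted p = 0.030). It did not pass without control 1, without control 2, with dim probe sets kept, with the replicate number as a block or without the intensity trend. Nor did Cnr1 pass with an ordinary t statistic, where 0 of the 14 receptors did. Gabbr2, a subunit of the GABA-B receptor, read 2993.8 and 2688.6 on the controls and 2088.6 and 2215.8 after KCl, with a log2 change of −0.40 ± 0.11 (limma adjusted p = 0.055). It passed without KCl 2 and with the stricter filter. Oprm1, the μ-opioid receptor gene, read 68.7 and 116.2 on the controls and 19.5 and 34.1 after KCl on its brightest probe set. All these values but that of control 2 were within background, and the log2 change was −1.79 ± 0.52 (limma adjusted p = 0.069). Its other tested probe sets changed less, by −0.19 ± 0.71 (S77863_s_at) and −0.13 ± 0.54 (S79903mRNA_g_at, from the same source sequence as the brightest), with limma adjusted p = 0.90 for each. Of 12 listed G protein subunit and RGS genes, 3 were measured, Gnao1, Gnb1 and Gnb2, and none passed in limma, where 0 had an unadjusted p below 0.05 on the brightest probe set (median log2 change 0.05).

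Other potassium channel genes were read in the same way. Of 21 further inward-rectifier, two-pore and BK genes, 7 were on the array under their symbol, 5 of them within background on every probe set and array. The 4 tested had a median log2 change of 0.25, against −0.33 for the 8 tested member genes, Kcnk3 included. None of the 4 passed in limma, and Kcnj5 and Kcnj8 among them were within background on all 4 arrays. The gene with an unadjusted p below 0.05, 1 of the 4, was Kcnj1, the renal channel ROMK, at 154.4 and 113.2 on the controls and 205.8 and 185.1 after KCl (log2 change 0.56 ± 0.24, limma adjusted p = 0.18). Another tested probe set of Kcnj1, AF081365_s_at, went the other way, from 76.1 and 61.7 on the controls to 64.1 and 51.7 after KCl. Its log2 change was −0.25 ± 0.38 (limma adjusted p = 0.72). Kcnj10, the inward rectifier of astrocytes, read 51.0 and 56.3 on the controls and 66.1 and 98.4 after KCl (log2 change 0.59 ± 0.38; limma adjusted p = 0.38). Of the small-conductance calcium-activated channels, Kcnn1 was tested and did not pass (log2 change −0.32 ± 0.18; limma adjusted p = 0.32). Of 45 voltage-gated potassium channel genes, 25 were tested, Kcnf1 rose, and Kcnc2 and Kcnab1 fell (median log2 change −0.30), where 10.2% of all 570 tested genes passed. All 3 calls were lost when either control array was left out. With the replicate number as a block or without the intensity trend, Kcnf1 alone passed, and with an ordinary t statistic 0 of the 25 did. None of 10 tested voltage-gated calcium channel genes passed in limma, where 3 had an unadjusted p below 0.05, all lower (median log2 change −0.30), and Cacna1c passed without KCl 2. The difference between the members and these lists was not tested.

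Markers of the cells in the cultures were read beside the channels. All 11 measured neuron markers had values above background, Nefh on all arrays but control 1, with summed intensities of 34750.5 and 35904.9 on the controls and 32616.1 and 33299.0 after KCl, and 1 of 11 passed, Snap25, as higher. It did not pass without control 1, without control 2, with dim probe sets kept, with the replicate block, without the intensity trend or with an ordinary t statistic. Of 6 inhibitory neuron markers, 4 fell (Gad1, Slc32a1, Sst and Nxph1), and of these Sst alone passed without control 1 and without control 2. The other 2 of the 6 did not pass in limma, where 4 of the 6 had an unadjusted p below 0.05. A fall was thus not shown for the whole list. With an ordinary t statistic 0 of the 6 passed. Over all 6 the log2 change had a median of −1.56 and a mean of −1.07. The summed intensities of the 6 were 15624.0 and 15505.6 on the controls and 10210.5 and 10841.6 after KCl. Of 8 astrocyte markers, Kcnj10 included, 6 rose and none fell, with sums of 5534.9 and 5276.2 on the controls and 12617.1 and 10072.2 after KCl; 0 passed without control 1, without control 2 or without the intensity trend, 3 after centring on the median or with the replicate block, and 4 without KCl 1, with quantile normalization or with dim probe sets kept. With an ordinary t statistic 0 of the 8 astrocyte markers passed. Gfap and Aqp4 had no probe set with their symbol, and Slc1a2 was within background. Of 5 tested oligodendrocyte markers and the 1 microglial marker, Itgam, none passed in limma, with 0 unadjusted p-values below 0.05. Of the 6 oligodendrocyte genes on the array, 4 were within background on every probe set and array. Mbp, Mog and Itgam were within background. In such bulk samples fewer cells of a type and less RNA per cell cannot be told apart, and the part of these shifts in the values of the channel genes was not tested.

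**Figure D4:**
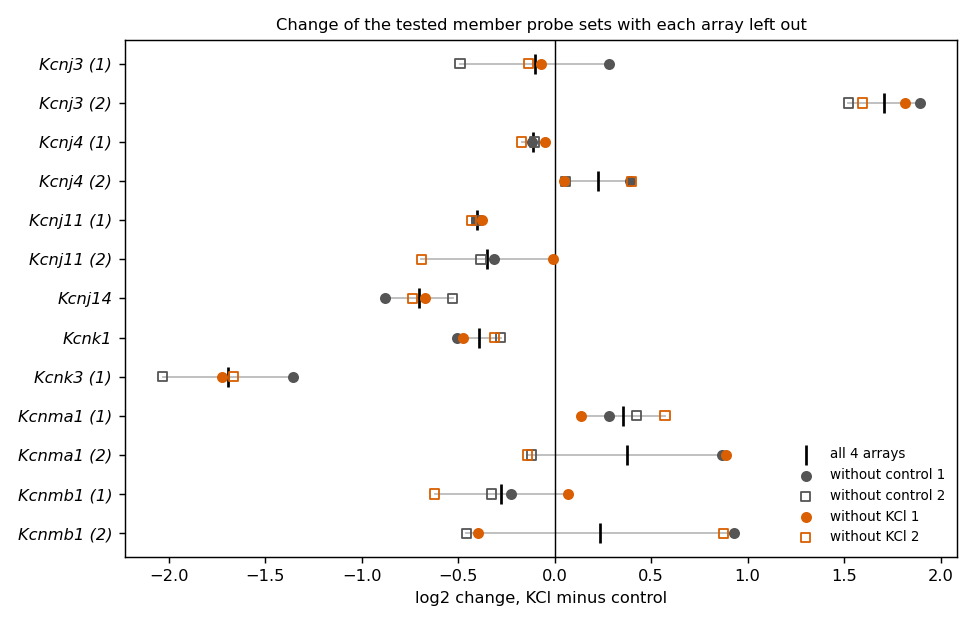
Log2 change, KCl minus control, of the 13 tested member probe sets with all 4 arrays (vertical ticks) and with control 1, control 2, KCl 1 or KCl 2 left out (circles and squares). The sign held in all 4 for 9 of the 13, and 7 of these had groups that did not overlap, where leaving out 1 array cannot turn it. The points fall on both sides of 0 for Kcnj3 (1), Kcnma1 (2) and both probe sets of Kcnmb1.

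Across the 4 fits that each leave out 1 array, 9 of the 13 tested member probe sets kept the sign of their change. The exceptions were U09243_at of Kcnj3, from −0.49 to 0.28 in log2, U93052_s_at of Kcnma1, from −0.14 to 0.89, AF020712_at of Kcnmb1, from −0.62 to 0.07, and AB010963_s_at of Kcnmb1, from −0.46 to 0.93. The least spread was that of D86039_at of Kcnj11. Both probe sets of Kcnmb1 and U93052_s_at of Kcnma1 turned with which KCl array was left out, and U93052_s_at and AB010963_s_at also with which control array was, whereas Kcnj14, Kcnk1, Kcnk3 and both Kcnj11 probe sets stayed below 0 in all 4. For the 7 tested member probe sets whose control and KCl arrays did not overlap, leaving out 1 array could not turn the sign. Kcnj14, Kcnk1, Kcnk3 and D86039_at of Kcnj11 are among these 7. Such probe sets made up 58.0% of all 947, and the share of the 947 that kept its sign was not computed. A sign that holds in this way is a description of the 4 arrays and does not replace the test, which none of the member probe sets passed with all arrays.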

How the data were processed

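Biotin-labelled cRNA from 5 µg of total RNA was hybridized to 1-colour Affymetrix neurobiology arrays, per the labels' protocols. The values are deposited probe set intensities on a linear scale; the algorithm and software that combined the probes are not stated in the labels. The arrays had been brought to 1 level (2% trimmed means of 502.0 to 502.4) and were used as deposited, as log2 intensity. Symbols came from the platform annotation, which gave 1 symbol to 1137 of 1263 probe sets, several to 8 and none to 118.

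The 59 control probe sets and the dimmest 25% by mean over the 4 arrays (means up to 33.3) were left out. The other 947 were fitted with limma 3.58.1 in R 4.3.3 (eBayes with an intensity trend, two-sided, Benjamini-Hochberg over all 947). An exact permutation test of 2 against 2 arrays cannot reach a p below 0.33, so calls lean on the shared variance, and precision is limited by the number of arrays.

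The 10 genes, the gene lists and the alternatives were chosen with earlier results of these data known. The genes named are all members, the list genes that passed or had the smallest p, and Fos, Nr4a1 and Bdnf; others were chosen after their values were seen. Each gene entered a list through its brightest tested probe set. Alternatives were 3 normalizations, a pseudocount of 16, no filter or a 40% filter on dimness, a replicate block, each array left out, and 2 variance models; list counts under these were added later.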

Additional observations from a re-analysis of the deposited data

How the results depend on the processing

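The count of member probe sets that passed was 0 under all 3 normalizations (quantile, trimmed mean, median), the pseudocount, no filter, the stricter filter, the replicate block, the ordinary t statistic and without control 1, control 2 or KCl 1. It was 1 without the intensity trend (Kcnj3, U72410_s_at) and, over the arrays left out, between 0 and 1 (Kcnmb1, AF020712_at, without KCl 2). Over the whole array 102 probe sets passed, 50 with the replicate block, 21 without the intensity trend, 0 with an ordinary t statistic (157 with an unadjusted p below 0.05) and 11 to 178 with arrays left out in turn: 14 without control 1, 11 without control 2 and 178 without KCl 2, each such fit taking the spread of the reduced group from the other. Quantile normalization kept 80, with 48 higher and 32 lower, against 52 and 50.

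The replicate numbers are no evidence of pairing: the differences of arrays 1 and 2 in the control and KCl groups had a Pearson r of −0.03 across the 947 probe sets. With the replicate block 3 of 13 member probe sets had an unadjusted p below 0.05, against 209 of all 947.

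The Kcnj median of −0.26 moved to −0.40 with the stricter filter and −0.16 with probe sets averaged, and ran from −0.45 to −0.22 with arrays left out. The Kcnk median of −1.04 moved to −0.76 with the pseudocount and −0.39 with the stricter filter, which left Kcnk1, and ran from −1.16 to −0.93. The Kcnm median of 0.04 moved to 0.17 with probe sets averaged and ran from −0.03 to 0.10. With arrays left out the log2 change crossed 0 for U09243_at of Kcnj3 (−0.49 to 0.28), U93052_s_at of Kcnma1 (−0.14 to 0.89), AF020712_at of Kcnmb1 (−0.62 to 0.071) and AB010963_s_at of Kcnmb1 (−0.46 to 0.93). Beyond the construction of each alternative, the cause was not tested.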
